A study of Rattus norvegicus with 4 samples.

Results

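Genes that build the spindle, attach and hold chromosomes, trigger anaphase, condense chromosomes and divide the cell were followed in S16 cells, a Schwann cell line of rat that divides in culture, after transfection with a control siRNA (IDT DS NC1) or with siRNAs against Nr2f1 and Nr2f2. The 47 genes were chosen by name, without cyclins, tubulins and kinesins other than Cenpe, from 32545 genes in the deposited count table. The choice was made with earlier results of these data known. All 47 were in the table, all 47 were among the 13018 genes with enough counts to test, and they lie on 14 chromosomes. Polyadenylated RNA was sequenced in 4 libraries, 2 per group, named Ca and Cb for control (drawn as control A and B) and Ka and Kb for knockdown (drawn as siRNA A and B). The groups share the cell line, the culture medium and the transfection reagent, and the knockdown group is labelled as receiving both siRNAs. The column names also carry numbers (3 and 1 for Ca and Cb, 3 and 2 for Ka and Kb) that do not match the replicate numbers of the sample titles. Nothing in the labels ties the libraries to separate cultures. The p-values therefore reflect how far these libraries differ from one another, and that variation may be technical.

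Mitotic genes are transcribed in waves. In dividing cells their transcripts are low in G1 and peak in G2 and mitosis, when the complex of MuvB proteins with B-Myb and FoxM1 binds their promoters. The same MuvB core binds them as the repressive DREAM complex in cells that have left the cycle. Contact runs through a short promoter element called the CHR, often near CCAAT boxes that bind NF-Y. Schwann cells divide while they populate the growing nerve, stop dividing when they differentiate and divide again after nerve injury. In bulk RNA, fewer cells in mitosis and less mitotic RNA per cell cannot be told apart.

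Promoter sequence was available for 41 of the 47 genes (RefSeq, build GRCr8, 250 bases before to 50 after the annotated start). Ube2c, Incenp, Aurkb, Racgap1, Tpx2 and Cdca2 were not searched. The canonical CHR hexamer TTTGAA, searched on both strands, was found in 32 of these 41 windows (78.0%). It was found in 11.7% of 8340 windows of tested genes and in 18.3% of all 33469 windows of the same length. CCAAT was in 29 of the 41 windows (70.7%), against 37.9% of the windows of tested genes, and 24 of the 41 held both motifs. The related hexamer TTCGAA was in 3 (7.32%), against 2.13% of tested genes, 9.38% of DNA replication genes and 22.6% of other kinetochore and checkpoint genes. The half-site AGGTCA, a sequence that nuclear receptors such as COUP-TFs can bind, was in 7 of the 41 windows (17.1%), against 11.1% of tested genes and 16.2% of all windows, and its direct repeat with 1 base between was in 0. Matches of any of these motifs may overlap. The stretches below run from 75 bases before to 50 after the start of 1 gene for each function with such an entry, chosen for the smallest adjusted p among those with TTTGAA on the gene's own strand in the stretch. Capitals mark TTTGAA and CCAAT on either strand, so ATTGG is CCAAT read on the other strand.
Bub1b, spindle checkpoint kinase-like protein BubR1, chr3:126016992-126017116, plus strand: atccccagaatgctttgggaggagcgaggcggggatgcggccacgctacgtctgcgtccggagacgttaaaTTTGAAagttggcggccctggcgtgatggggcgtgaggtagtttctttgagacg
Cdc20, activator of the anaphase-promoting complex, chr5:137255750-137255874, minus strand: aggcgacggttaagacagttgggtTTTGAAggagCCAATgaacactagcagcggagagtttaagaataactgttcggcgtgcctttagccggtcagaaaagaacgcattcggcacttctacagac
Plk1, Polo-like kinase, chr1:186147583-186147707, plus strand: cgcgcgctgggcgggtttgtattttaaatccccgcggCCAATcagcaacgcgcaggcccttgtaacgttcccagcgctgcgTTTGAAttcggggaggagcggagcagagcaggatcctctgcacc
Birc5, survivin, chr10:103572071-103572195, plus strand: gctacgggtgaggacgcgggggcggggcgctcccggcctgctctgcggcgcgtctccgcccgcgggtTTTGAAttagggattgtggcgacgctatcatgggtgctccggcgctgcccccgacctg
Nuf2, kinetochore subunit, chr13:84255549-84255673, minus strand: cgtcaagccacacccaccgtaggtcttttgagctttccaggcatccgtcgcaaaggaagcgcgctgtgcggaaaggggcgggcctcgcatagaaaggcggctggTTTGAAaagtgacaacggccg
Nusap1, spindle microtubule protein, chr3:127057220-127057344, plus strand: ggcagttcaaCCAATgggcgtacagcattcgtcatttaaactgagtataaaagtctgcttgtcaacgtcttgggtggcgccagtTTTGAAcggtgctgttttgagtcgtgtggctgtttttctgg
Prc1, midzone microtubule bundler, chr1:143659406-143659530, plus strand: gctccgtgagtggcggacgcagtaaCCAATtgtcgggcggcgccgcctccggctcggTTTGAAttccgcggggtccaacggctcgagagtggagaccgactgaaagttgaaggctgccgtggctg
Ncapd2, condensin I subunit, chr4:159677889-159678013, minus strand: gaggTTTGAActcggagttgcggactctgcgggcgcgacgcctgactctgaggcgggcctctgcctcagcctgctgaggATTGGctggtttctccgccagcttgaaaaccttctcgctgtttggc
Counted from the annotated start, where the first transcribed base is 1, the hexamer on the gene's strand begins at -71 in Ncapd2, -51 in Cdc20, -18 in Prc1, -8 in Birc5 and -4 in Bub1b, and inside the first exon at 7 in Plk1, 10 in Nusap1 and 30 in Nuf2.

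The hexamer lay close to the start in most of these promoters. In 26 of 41 windows (63.4%) a TTTGAA on either strand began between 75 bases before and 50 after the start, against 3.86% of the windows of tested genes. Of 32 windows of DNA replication genes, which peak earlier in the cycle and are not in the set, 1 had it there (3.13%). Of 31 windows of other kinetochore and checkpoint genes, 8 had it there (25.8%). A motif match is a description of letters and not a bound site, and no binding was measured in these libraries.

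**Figure D1:**
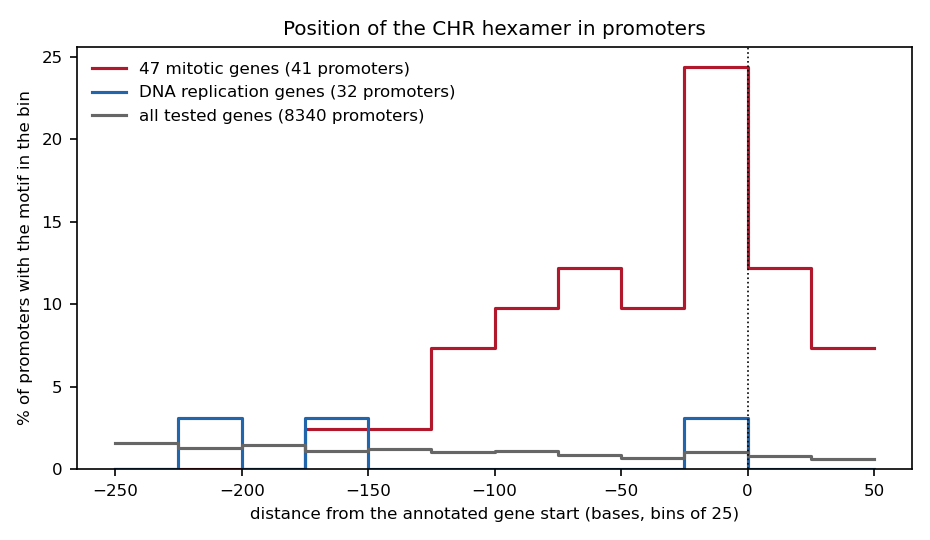
Share of promoters (vertical axis, %) with a TTTGAA on either strand that begins in each bin of 25 bases (horizontal axis, distance from the annotated gene start), for the 41 mitotic promoters, 32 promoters of DNA replication genes and 8340 promoters of tested genes. In the 25 bases before the start the share is 24.4% for the mitotic genes and 1.02% for tested genes.

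Gene counts summed to 26561522 in Ca, 21556011 in Cb, 25618234 in Ka and 43057750 in Kb, and each of the 47 genes had between 285 and 13663 counts in a library. Levels are in CPM, counts scaled to library size after TMM normalisation, given per library or, per kilobase, as the mean with n = 2. Fold changes are knockdown over control. Each adjusted p is Benjamini-Hochberg adjusted over all tested genes and, where no other tool is named, from edgeR (quasi-likelihood test). Within either group, library-to-library differences exceeded counting noise (chi-square per gene of 12.3). The targeted transcripts matched the labels, with Nr2f1 at 226 and 208 CPM in control against 61.5 and 56.0 CPM after knockdown, and Nr2f2 at 296 and 282 against 68.1 and 72.7 CPM. Of 10 Schwann cell markers, 1 rose (Pmp22, log2 fold change 0.32, adjusted p = 0.00552) and 0 fell, where 8.05% of all tested genes rose and 10.0% fell. The count higher was 2 with library-size scaling and 3 with loess offsets, where 10.6% and 8.22% of all tested genes rose. With DESeq2 1 marker was called lower, where 9.55% of its tested genes fell. A lower call also appeared without Kb. The Pmp22 call was lost without Ka (adjusted p = 0.0529) or Kb (0.0742). The summed level of the Schwann markers was 14382 and 14908 CPM in control and 16742 and 16039 CPM after knockdown. Some markers of other cell types were at 0 CPM in every library (Dcn and Lum of fibroblasts, Ptprc and Adgre1 of macrophages, Cdh5 and Kdr of endothelium, Rbfox3 of neurons). Other markers of the same lists were detected. Tested markers of those cell types were 4 of fibroblasts, 2 of macrophages, 1 of endothelium and 2 of neurons. Of these, Postn of fibroblasts (log2 fold change 1.24) and Tubb3 of neurons (0.31) rose and 0 fell. The shares over all tested genes were 8.05% higher and 10.0% lower. The other neuron marker tested, at 0.95, did not pass. Of the 4 tested fibroblast markers, 3 were called higher with library-size or upper-quartile scaling. The count was 2 with DESeq2, limma-voom, loess offsets or the 1 CPM filter. In the same order, 10.6%, 9.71%, 6.35%, 8.57%, 8.22% and 9.22% of all genes tested in those fits rose. The median log2 fold change of the 4 markers was 0.54. Tubb3 lost its call without Ca (adjusted p = 0.169), Cb (0.0749) or Ka (0.365). Summed levels in control and siRNA libraries were 13097 to 13507 and 13326 to 13413 CPM for the fibroblast list, nearly all from Col1a1 and Col3a1, 1.55 to 1.83 and 1.65 to 1.67 CPM for macrophages, 5.29 to 6.14 and 3.72 to 4.50 CPM for endothelium and 77.2 to 80.7 and 89.5 to 106.9 CPM for neurons. Their part in the results below was not tested.

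Most of the mitotic genes fell after the knockdown of Nr2f1 and Nr2f2. Of the 47 genes, 41 fell (87.2%), 0 rose and 6 did not pass the test. Over all 13018 tested genes 10.0% fell and 8.05% rose. At an unadjusted p under 0.05, 46 of the 47 were lower, as were 16.2% of all tested genes (31.4% in either direction), and DESeq2's Wald test called 41 lower and 0 higher (9.55% of its genes lower, 6.35% higher). All 47 log2 fold changes were negative, as were 49.0% over all tested genes. In all 47 genes both knockdown libraries lay below both control libraries, which was so for 28.5% of all tested genes. The falls were moderate. Log2 fold changes ran from -0.74 in Iqgap3 to -0.15 in Ckap5 with a median of -0.42, against 0.01 for all tested genes and -0.02 for the 7842 tested genes within the same range of levels, of which 13.1% fell. The median gene kept 74.8% of its control level.

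The 47 genes together held 0.573% and 0.537% of all counts in Ca and Cb and 0.423% and 0.435% in Ka and Kb. Their summed level was 5883 and 5425 CPM in control and 4156 and 4279 CPM after knockdown, so that the groups did not overlap. Ca was the higher of the control libraries for 33 of the 47 genes. The median log2 ratio was between -0.47 and -0.39 for the 4 possible pairs of 1 knockdown and 1 control library. Leaving out 1 library at a time kept all 47 values negative, and the number of calls moved. It was 32 without Ca, 42 without Cb, 30 without Ka and 30 without Kb, where 6.99%, 8.06%, 6.83% and 5.61% of all tested genes fell and 4.53%, 5.4%, 5.73% and 4.5% rose. In all 4 of these fits 22 genes were called lower. The calls were 41 with DESeq2 size factors (10.2% of tested genes lower, 7.8% higher), 41 with no filter (6.88%, 5.52%), 41 with 1 CPM in 2 libraries (10.9%, 9.22%), 39 with library-size scaling (7.75%, 10.6%), 40 with upper-quartile scaling (8.5%, 9.71%), 40 with loess offsets (9.28%, 8.22%), 43 with limma-voom (10.9%, 8.57%) and 43 with the legacy edgeR fit (10.6%, 8.57%). The authors' deposited table, made from a comparison of the same libraries, lists all 47 with a negative log2 fold change, from -0.75 to -0.15. Of the 47, 41 had an adjusted p under 0.05, and 6.77% of its 17633 genes were lower by that rule. That share counts all listed genes, whereas the 9.55% given for DESeq2 counts only genes with an adjusted p.

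**Figure D2:**
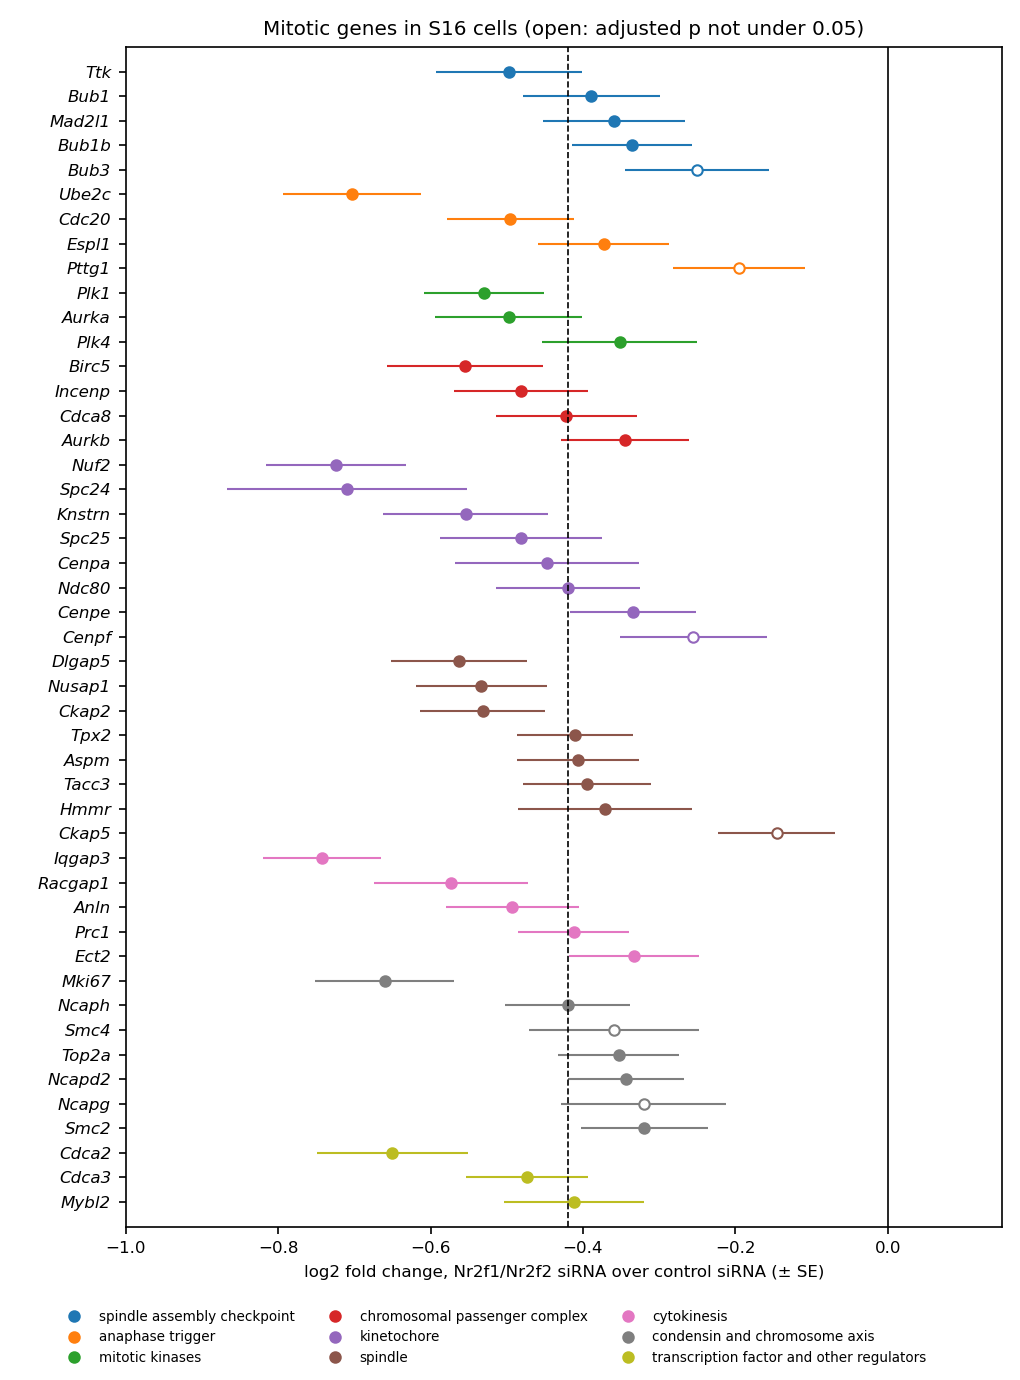
Log2 fold change (horizontal axis, Nr2f1/Nr2f2 siRNA over control siRNA, bars ± SE) of each of the 47 mitotic genes, coloured by function; filled points have an adjusted p under 0.05 and the dashed line is their median of -0.42. All points lie left of 0, from Iqgap3 at -0.74 to Ckap5 at -0.15.

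**Figure D3:**
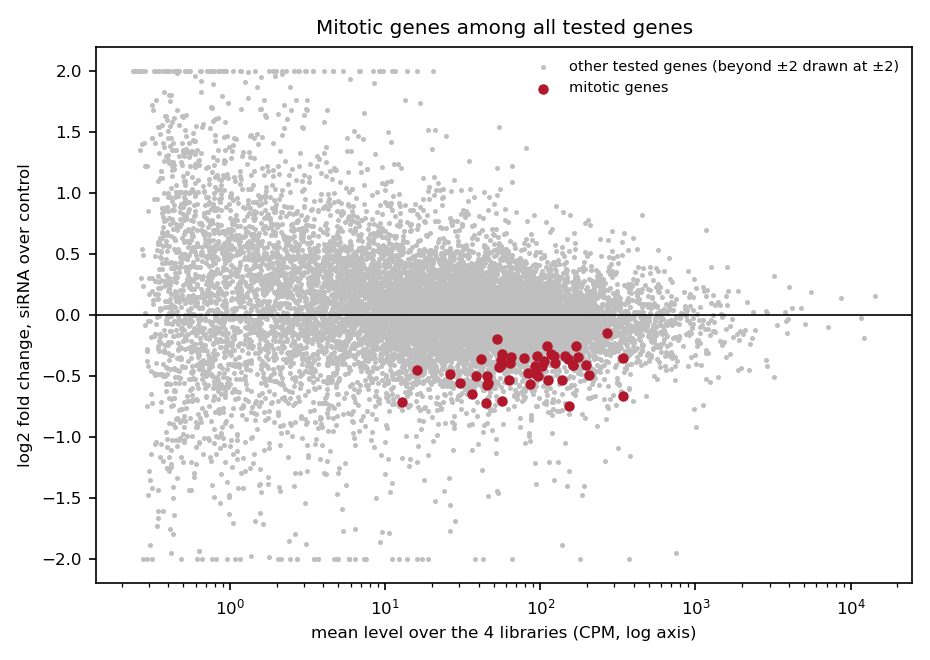
Log2 fold change (vertical axis) against mean level over the 4 libraries (horizontal axis, CPM, log scale) for all 13018 tested genes in grey and the 47 mitotic genes in red. The mitotic genes have mean levels of 12.9 to 343 CPM and lie below 0 within a cloud of tested genes centred near 0.

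Genes of the spindle assembly checkpoint, the surveillance system that delays anaphase until every kinetochore is attached, fell in 4 of 5 cases. Ttk, which encodes the kinase Mps1 at the top of the pathway, was at 56.7 and 50.1 CPM in control and 38.1 and 37.7 CPM after knockdown, log2 fold change -0.50 (SE 0.10, adjusted p = 0.00353). Its siRNA libraries were close together and below either control library. Bub1, whose kinase marks centromeres and recruits checkpoint proteins, fell by 0.39 in log2 units (SE 0.09, adjusted p = 0.00992). Bub1b, the gene of the BubR1 subunit of the inhibitory complex, was at 106 and 104.7 CPM in control and 83.7 and 83.6 CPM after knockdown (log2 fold change -0.34, adjusted p = 0.0105). Mad2l1 encodes Mad2, which with BubR1 holds Cdc20 inactive, and fell by 0.36 (adjusted p = 0.0183). Bub3, the partner of Bub1 and BubR1, was the most abundant of the 5 per kilobase, at 43.8 CPM per kb in control. It was at 108 and 131 CPM in control and 100.2 and 100.3 CPM after knockdown, and was not called (-0.25, SE 0.09, adjusted p = 0.0889), although it did without Ca (adjusted p = 0.0171). Bub1 lost its call without Ca (adjusted p = 0.0870) or Ka (0.0699), Bub1b without Ka (0.0547) or Kb (0.0662), and Mad2l1 without Cb (0.0797) or Kb (0.133).

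Of 4 genes that set off anaphase, 3 fell. Ube2c encodes the ubiquitin-conjugating enzyme of the anaphase-promoting complex and was at 70.9 and 69.9 CPM in control and 45.6 and 41.2 CPM after knockdown. Its log2 fold change of -0.70 (SE 0.09, adjusted p = 0.000250) left 61.6% of the control level. Cdc20, the activator of that complex, was at 116 and 110.1 CPM in control and 83.8 and 77.1 CPM after knockdown (-0.50, SE 0.08, adjusted p = 0.00154). Espl1, the gene of separase, which cleaves cohesin, fell by 0.37 (SE 0.09, adjusted p = 0.00989), a call lost without Ca (adjusted p = 0.0900) or Kb (0.0536). Pttg1, the gene of securin, the inhibitor that keeps separase inactive, was at 55.7 and 57.3 CPM in control and 48.9 and 49.7 CPM after knockdown. Its libraries did not overlap, but the difference did not pass the test (-0.19, SE 0.09, adjusted p = 0.145), nor did it in any fit without 1 library, where log2 fold changes lay between -0.22 and -0.18.

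All 3 mitotic kinase genes and all 4 genes of the chromosomal passenger complex fell. Plk1 encodes the Polo-like kinase that acts from mitotic entry to cytokinesis and was at 138 and 129 CPM in control and 91.7 and 92.8 CPM after knockdown. Its log2 fold change was -0.53 (SE 0.08, adjusted p = 0.000708), and at 59.6 CPM per kb in control it was the most abundant of the kinase genes. Aurka, the gene of the spindle pole kinase Aurora A, was at 45.0 and 45.4 CPM in control and 33.7 and 30.6 CPM after knockdown (-0.50, SE 0.10, adjusted p = 0.00369). Plk4, whose kinase starts centriole duplication in S phase, was at 97.2 and 78.5 CPM in control and 67.3 and 70.5 CPM after knockdown. Its fall of 0.35 on the log2 scale (adjusted p = 0.0313) was not called without Ca (log2 fold change -0.19, adjusted p = 0.294), Ka (0.113) or Kb (0.0631), or with scaling by library size (0.0515). The passenger complex places Aurora B on centromeres and later on the midzone. Birc5, its survivin subunit, was at 57.1 and 51.6 CPM in control and 39.9 and 34.6 CPM after knockdown (-0.55, SE 0.10, adjusted p = 0.00274), and was its most abundant gene per kilobase at 62.3 CPM per kb in control. The scaffold gene Incenp fell by 0.48 (adjusted p = 0.00252), the borealin gene Cdca8 by 0.42 (adjusted p = 0.00771) and the kinase gene Aurkb by 0.34 (adjusted p = 0.0132). Cdca8 lost its call without Ka (adjusted p = 0.0541) and Aurkb without Kb (0.0985).

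Kinetochore genes fell in 7 of 8 cases. The subunits of the NDC80 complex, the rod-shaped coupler that binds spindle microtubules, all fell. Nuf2 was at 54.0 and 57.9 CPM in control and 33.4 and 34.2 CPM after knockdown, and its log2 fold change of -0.72 (adjusted p = 0.000238, SE 0.09) left 60.5% of the control level. Spc24 was the least abundant of the 47 genes by CPM, at 14.4 and 17.4 CPM in control and 10.9 and 8.75 CPM after knockdown (-0.71, SE 0.16, adjusted p = 0.00828). Its SE was the largest of the set. Spc25 fell by 0.48 (adjusted p = 0.00787) and Ndc80 by 0.42 (adjusted p = 0.00875). Per kilobase, the 4 subunits kept their order, at 31.0 (Ndc80), 29.6 (Nuf2), 24.2 (Spc25) and 18.4 CPM per kb (Spc24) in control and 23.1, 17.9, 17.3 and 11.4 CPM per kb after knockdown. Knstrn, the gene of a kinetochore and spindle protein that activates separase, fell by 0.55 (adjusted p = 0.00397). Cenpe, which encodes a kinesin motor that moves chromosomes to the equator, fell by 0.33 (adjusted p = 0.0144).

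Cenpa, the histone H3 variant that marks centromeres, was at 18.7 and 18.6 CPM in control and 13.6 and 13.8 CPM after knockdown (log2 fold change -0.45, SE 0.12, adjusted p = 0.0221). At 7.40 CPM per kb in control it had the lowest level of the 47 genes per kilobase. Its libraries agreed closely within each group, yet its call was lost without any 1 library (adjusted p = 0.0887 and 0.0623 without Ca and Cb, 0.0848 and 0.103 without Ka and Kb) and with DESeq2 (0.0566). Cenpf, a large protein of the outer kinetochore, was at 200.1 and 168 CPM in control and 145 and 163.2 CPM after knockdown. The gap between Cb and Kb was narrow and the difference did not pass the test (-0.26, SE 0.10, adjusted p = 0.0903), but did without Cb (adjusted p = 0.0146). Other kinetochore calls lost were Ndc80 without Ca (adjusted p = 0.0628) or Ka (0.0752), Cenpe without Ca (0.122), Ka (0.0692) or Kb (0.0525), and Spc24 (0.0806) and Spc25 (0.0513) without Kb.

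Of 8 genes for proteins of the spindle, 7 fell. Dlgap5, whose product HURP stabilises microtubules near chromosomes, was at 109.8 and 95.8 CPM in control and 71.6 and 67.9 CPM after knockdown (log2 fold change -0.56, SE 0.09, adjusted p = 0.00109). Ckap2, a microtubule protein, was at 171 and 158 CPM in control and 108 and 119 CPM after knockdown (-0.53, SE 0.08, adjusted p = 0.000915), and at 64.5 CPM per kb in control was the most abundant of the group. Nusap1, which bundles spindle microtubules, fell by 0.53 (adjusted p = 0.00113). Tpx2, the activator of Aurora A on the spindle, was at 192 and 180.0 CPM in control and 138 and 142 CPM after knockdown (-0.41, SE 0.08, adjusted p = 0.00284). Aspm, a spindle pole protein whose loss causes microcephaly in humans, fell by 0.41 (adjusted p = 0.00400) and Tacc3, which bridges microtubules of the kinetochore fibre, by 0.39 (adjusted p = 0.00645). Hmmr, a spindle protein and hyaluronan receptor, was at 69.6 and 56.1 CPM in control and 45.1 and 51.9 CPM after knockdown (-0.37, SE 0.11, adjusted p = 0.0430). Its call was lost without Ca (log2 fold change -0.21, adjusted p = 0.325) or Ka (0.187) and with scaling by library size (0.0657), upper quartile (0.0598) or loess (0.0532). Tacc3 lost its call without Kb (adjusted p = 0.0504). Ckap5 encodes chTOG, a microtubule polymerase that also works in interphase, and had the smallest difference of the 47 genes. It was at 294 and 272 CPM in control and 247 and 265 CPM after knockdown (-0.15, SE 0.08, adjusted p = 0.218), and did not pass the test in any of the alternative fits.

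All 5 cytokinesis genes fell, and Iqgap3 fell most of the 47. Iqgap3, a scaffold that binds Cdc42 and Rac1 and is found in dividing cells, was at 197 and 183 CPM in control and at 114 CPM in either siRNA library. Its log2 fold change of -0.74 (SE 0.08, adjusted p = 5.67e-05) left 59.8% of the control level. Racgap1, the GTPase-activating subunit of centralspindlin, was at 53.4 and 54.7 CPM in control and 39.4 and 33.6 CPM after knockdown (-0.57, SE 0.10, adjusted p = 0.00204). Anln, the gene of the ring scaffold anillin, was at 257 and 223 CPM in control and 162.4 and 178 CPM after knockdown (-0.49, SE 0.09, adjusted p = 0.00209). Prc1, which bundles the microtubules of the midzone, had the highest level of the 47 genes per kilobase, at 76.4 CPM per kb in control and 57.4 CPM per kb after knockdown. In CPM it was at 223 and 224 in control and 166 and 170 in siRNA libraries (-0.41, SE 0.07, adjusted p = 0.00205). Ect2, the exchange factor that activates RhoA at the furrow, fell by 0.33 (adjusted p = 0.0173), a call lost without Ca (adjusted p = 0.136) or Ka (0.107).

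Of 7 genes of condensin I, topoisomerase and the chromosome surface, 5 fell. Mki67, the gene of the proliferation antigen Ki-67 that coats mitotic chromosomes, had the highest CPM of the 47 genes in the controls. It was at 458 and 379 CPM in control and 256 and 274 CPM after knockdown, and its log2 fold change of -0.66 (adjusted p = 0.000506, SE 0.09) left 63.3% of the control level. Top2a, the topoisomerase that untangles sister chromatids, was at 407 and 363 CPM in control and 290.1 and 312 CPM after knockdown (-0.35, SE 0.08, adjusted p = 0.00897), and at 68.8 CPM per kb in control was the most abundant of the group. Within condensin I, the ring that compacts chromosomes, the kleisin gene Ncaph fell by 0.42 (adjusted p = 0.00391), the HEAT-repeat gene Ncapd2 by 0.34 (adjusted p = 0.00782) and the ATPase gene Smc2 by 0.32 (adjusted p = 0.0185). The second ATPase gene, Smc4, was at 189 and 147 CPM in control and 127 and 136 CPM after knockdown. Its spread between the controls was wide and the difference did not pass (-0.36, SE 0.11, adjusted p = 0.0528), nor did that of the HEAT-repeat gene Ncapg (-0.32, SE 0.11, adjusted p = 0.0599). Without Cb, Smc4 (adjusted p = 0.000980) and Ncapg (0.0163) passed, and Ncapg also without Kb (0.0341). Smc4 also passed with DESeq2 (adjusted p = 0.0119) or limma-voom (0.0451) and Ncapg with limma-voom (0.0470). Top2a lost its call without Ca (adjusted p = 0.0648) or Ka (0.0770), Smc2 without Ca (0.130) or Ka (0.119), and Ncapd2 without Kb (0.0928). All 5 condensin I genes were between 74.8% and 80.1% of control.

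The 3 remaining genes fell. Cdca2 encodes Repo-Man, which brings protein phosphatase 1 to chromosomes at mitotic exit, and was at 45.3 and 43.7 CPM in control and 29.9 and 27.0 CPM after knockdown (log2 fold change -0.65, SE 0.10, adjusted p = 0.000819). Cdca3, which encodes an F-box-like protein that promotes turnover of the Cdk1 inhibitor Wee1, was at 98.3 and 95.2 CPM in control and 69.9 and 69.5 CPM after knockdown (-0.47, SE 0.08, adjusted p = 0.00162). Mybl2 encodes B-Myb, the transcription factor that joins MuvB to turn on mitotic genes, and was at 63.8 and 62.6 CPM in control and 50.3 and 45.0 CPM after knockdown (-0.41, SE 0.09, adjusted p = 0.00829). The Mybl2 call was lost without Kb (adjusted p = 0.0969). The genes that overlap any of the 47 and had at least 20 counts in all were a gene opposite Birc5 with 21 counts and a small RNA gene within Ncapd2 with 28.

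**Figure D4:**
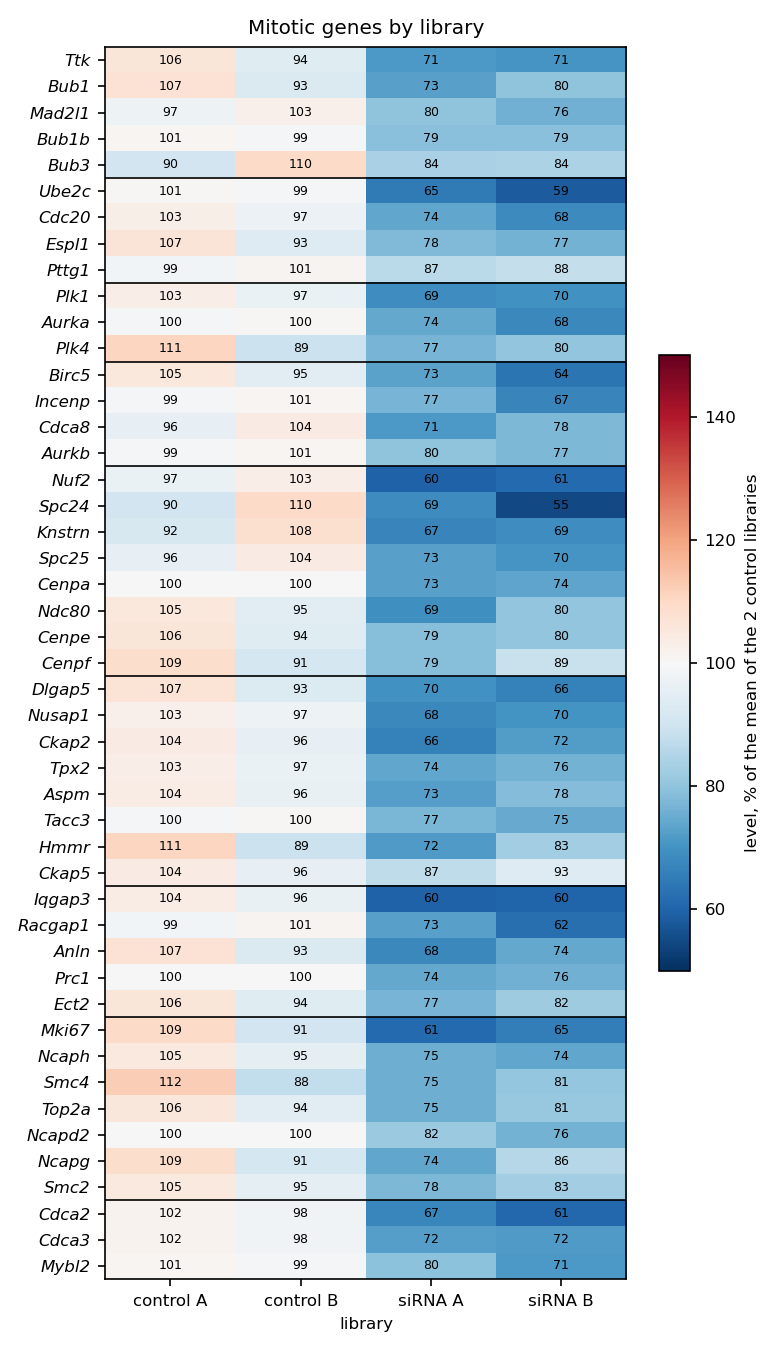
Level of each of the 47 mitotic genes (rows, grouped by function) in the 4 libraries (columns), as a percentage of the mean of the 2 control libraries, with the value printed in each cell. Both siRNA columns are below both control columns in every row. The median over the rows, taken for each column, is 103% and 96.7% in the controls and 74.0% and 74.98% in siRNA libraries.

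Genes with and without the CHR hexamer were set side by side, with no test. The 32 genes with TTTGAA in the promoter window had a median log2 fold change of -0.41 and 27 of them fell, and the 9 without it had a median of -0.42 and 8 of them fell. Among tested genes in none of the lists used here, 274 had TTTGAA between 75 bases before and 50 after the start. Of those 12.4% fell, with a median log2 fold change of -0.03, against 9.73% and 0.01 for the 7872 without it there.

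Further genes of the mitotic apparatus were listed from textbook knowledge, with earlier results of these data known. Their lists differed in the share that fell. Over all tested genes 10.0% fell and 8.05% rose. Cdk1 and the cyclin genes Ccna2, Ccnb1 and Ccnf all fell (4 of 4 tested), and Cdk1 had the smallest adjusted p (-0.58, SE 0.08, adjusted p = 0.000414). Ccnb2, also on this list of 5, did not match a gene of the count table. Ccna2 (-0.38) lost its call without Ka (adjusted p = 0.0557). Of 12 mitotic kinesin genes 9 fell and 0 rose, with a median of -0.44 and the smallest adjusted p in Kif22 (-0.54), Kif20a (-0.49) and Kif18b (-0.53). The kinesin count was 8 with library-size scaling and 10 with limma-voom, where 7.75% and 10.9% of all tested genes fell. It was smaller without Ca, Ka or Kb. Of 36 further kinetochore and checkpoint genes 16 fell (44.4%) and 0 rose, with a median of -0.35. The most significant encode Kntc1 (-0.55) and Zwilch (-0.61) of the RZZ complex, which carries checkpoint proteins, and the centromere subunit Cenpi (-0.56). That count was 13 with DESeq2 and 19 with limma-voom, where 9.55% and 10.9% of all tested genes fell. It was smaller without Ca, Ka or Kb, most of all without Ca, and so was the share of all tested genes that fell. A higher call appeared without Ka, and 1 gene was called higher with library-size or upper-quartile scaling. Over all tested genes 10.6% rose with library-size scaling and 9.71% with upper-quartile scaling. Of 18 regulators of mitotic entry and MuvB partners 7 fell (38.9%) and 0 rose. They included Foxm1, the transcription factor that cooperates with B-Myb (-0.48, SE 0.09, adjusted p = 0.00245), the Polo-like kinase gene Plk2 (-0.64) and the Greatwall kinase gene Mastl (-0.55). This count was 5 with DESeq2 or library-size scaling, where 9.55% and 7.75% of all tested genes fell. It was smaller in every fit without 1 library, most of all without Ca. The share of all tested genes that fell was smaller there too. Mastl lost its call without Ca (log2 fold change -0.52) or Ka (-0.37).

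The anaphase-promoting complex, the ubiquitin ligase that Cdc20 activates, was described in the same way. Of 17 genes for its subunits and cofactors 2 fell (11.8%) and 0 rose, near the 10.0% of all tested genes, with a median log2 fold change of -0.03. The count was 0 with library-size scaling, where 7.75% of all tested genes fell, and was smaller without Ca, Cb or Kb. The pair that fell were cofactors, the inhibitor Fbxo5 (-0.42, adjusted p = 0.0335) and the G1 activator Fzr1 (-0.28, adjusted p = 0.0364). Fzr1 was lost without Ca (adjusted p = 0.0818), Cb (0.105) or Kb (0.316) and with scaling by library size (0.0786), upper quartile (0.0589) or loess (0.0629), and Fbxo5 without Ca (0.267), Ka (0.102) or Kb (0.124) and with DESeq2 (0.0778) or library-size scaling (0.0557). Of 15 cohesin and condensin II genes 4 fell (26.7%) and 0 rose. All 3 condensin II subunit genes were among those that fell, Ncapd3 (-0.59, adjusted p = 0.000683), Ncapg2 (-0.44, adjusted p = 0.0094) and Ncaph2 (-0.30, adjusted p = 0.0258). None of 5 core cohesin genes (Smc1a, Smc3, Rad21, Stag1 and Stag2) passed, with log2 fold changes from -0.19 to 0.09. The count of 4 was 2 with library-size scaling, where 7.75% of all tested genes fell. It was also smaller without Ca, with only Ncapd3 left, and without Ka or Kb. Ncaph2 was lost without any 1 library (adjusted p from 0.0719 to 0.180) and with library-size scaling (0.0576) and Ncapg2 without Ca (0.103). With library-size or upper-quartile scaling 2 genes of this list were called higher, and 1 with limma-voom. Over all tested genes 10.6% rose with library-size scaling, 9.71% with upper-quartile scaling and 8.57% with limma-voom. Higher calls in this list also appeared without Ca or Ka. Of 20 centrosome and centriole genes 7 fell (35.0%) and 0 rose. The smallest adjusted p were those of Cep55 (-0.55), which acts at the midbody, and of Haus4 (-0.56) and Haus3 (-0.54) of augmin, the complex that branches spindle microtubules. The centrosome count was 5 with library-size scaling, where 7.75% of all tested genes fell. It was smaller without Ca, Ka or Kb, and so was the share of all tested genes that fell. The centrosome count was smallest without Kb, where Haus4 lost its call (log2 fold change -0.44).

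**Figure D5:**
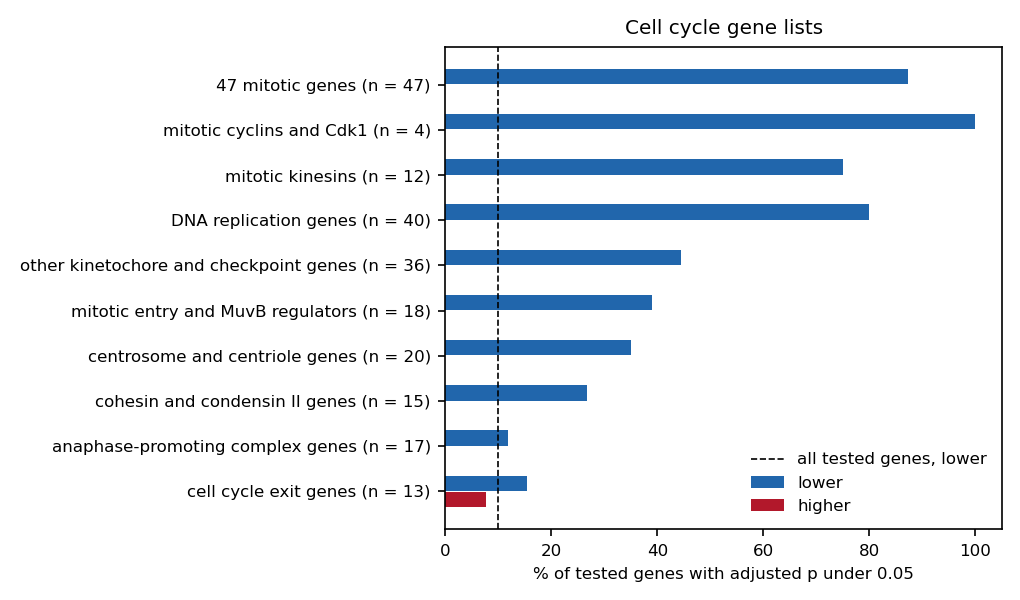
Share of the tested genes of each list (horizontal axis, %) with an adjusted p under 0.05, lower in blue and higher in red, with the number tested in brackets and a dashed line at the 10.0% of all tested genes that fell. The share that fell is 87.2% for the 47 mitotic genes, 80.0% for DNA replication genes and 11.8% for the anaphase-promoting complex.

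DNA replication genes fell as well. Of 40 tested, 32 fell (80.0%) and 0 rose, against 10.0% and 8.05% of all tested genes. The count was 29 with DESeq2 or library-size scaling (9.55% and 7.75% of all tested genes lower) and 34 with limma-voom (10.9%). It was smaller than 32 in every fit without 1 library. The median log2 fold change of the replication genes was -0.47, beside -0.42 for the 47 mitotic genes. The largest fall among the replication genes, and larger than in any of the 47, was in the ribonucleotide reductase gene Rrm2. It was at 104 and 121 CPM in control and 60.2 and 55.1 CPM after knockdown (-0.97, SE 0.09, adjusted p = 3.36e-05). Whether the mitotic and the replication genes differ in their fall was not tested. Of 13 tested genes that accompany exit from the cycle, 1 rose (7.69%) and 2 fell (15.4%). With all libraries kept, these shares were near the 8.05% and 10.0% of all tested genes. The number that fell was smaller without Ca, Cb or Ka, and so was the share of all tested genes that fell. It was larger without Kb, although a smaller share of all tested genes fell there. In that fit the share of exit genes that fell was therefore not near that of all tested genes. The pocket protein gene Rbl2, whose product p130 is part of DREAM in resting cells, was at 67.8 and 58.5 CPM in control and 79.2 and 85.8 CPM after knockdown (log2 fold change 0.39, SE 0.09, adjusted p = 0.0137). That of its relative p107, Rbl1, fell (-0.53, adjusted p = 0.0203), as did Gadd45a (-0.47, adjusted p = 0.0107). The Cdk inhibitor genes Cdkn1a (0.17, adjusted p = 0.187) and Cdkn1b (0.15, adjusted p = 0.212) did not pass. Rbl2 lost its call without Cb (adjusted p = 0.109) or Kb (0.102), Rbl1 without Ca (0.144) or Ka (0.0779), and Gadd45a without Cb (0.0917).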

How the data were processed

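Read counts per Ensembl gene were deposited as whole numbers. The submitters' processing notes list HISAT2, featureCounts 1.5.0-p3 and DESeq2 1.20.0; the build, annotation and strand setting were not given in the sources consulted. From the authors' deposited comparison only its log2 fold changes and p-values were used; its 14 per-library or group-mean columns were left aside.

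Counts were fitted with edgeR 4.0.16 in R 4.3.3 (filterByExpr, TMM, robust quasi-likelihood with legacy fitting off, intercept and group; biological coefficient of variation 0.111; threshold 0.05). SEs derive from the F statistic. Alternatives used DESeq2 1.42.0, limma-voom of limma 3.58.1, other scalings and filters, and 3 libraries; loess offsets and the legacy fit were chosen after seeing the data. The 3 counts that bound a zero correspond to 0.0697 to 0.139 CPM and cover counting error only.

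The members and lists were chosen with earlier results of these data known. Of 217 other list genes, 6 matched through older symbols and 9 did not match. Named genes were Nr2f1 and Nr2f2, members past the test, the most abundant and the most changed member of each function, and up to 3 genes per other list; remaining genes were chosen after their values were seen.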

Additional observations from a re-analysis of the deposited data

How the results depend on the processing

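No paired analysis was possible because the columns of the 2 groups share only the number 3, and its meaning is not given. No member changed sign in any of 611 values over 13 alternatives (9 with all 4 libraries, 4 with 1 left out), and 0 were called higher in any of them. Of the 41 genes called lower, 38 kept the call in all 9 alternatives with 4 libraries and 22 in every fit; 35 calls were lost and 5 gained over the leave-one-out fits. The number called lower lay between 39 (library-size scaling) and 43 (limma-voom and the legacy fit) with 4 libraries, and between 30 and 42 with 1 left out. The median log2 fold change of the 47 genes moved to -0.37 with library-size scaling and to -0.38 with loess offsets. Both moves exceeded the SD of 0.036 over the 4 library pairs, which share libraries and are not independent. With 1 library left out the median ranged from -0.47 to -0.40. The call rule passed 2350 of all tested genes, and 1353 to 1813 with 1 library left out, when the lone library of a group is assumed to vary like the others. Library-size scaling gave 1381 higher and 1009 lower genes (57.8% higher) against 1048 and 1302 (44.6%) with TMM. Each of the 47 genes had at least 285 counts in every library, and each group had 2 libraries.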
